A study of Mus musculus with 4 samples.

Results

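Genes of interferon and cytokine signalling, its feedback, and immune ligands or receptors were followed in IRF2 chromatin immunoprecipitation sequencing (ChIP-seq) of mouse intestinal stem cells. They are Socs1, Stat2, Stat3, Nmi, Ifi35, Il15ra and Cd274, which are 7 of 21887 protein-coding genes. The genes were chosen from earlier results on the same peak lists, so their peak positions and peak heights are given as a description, with no test. The cells were small intestinal stem cells of mice of the strain labelled Lgr5-EGFP-Ires-CreERT2, a reporter and Cre cassette placed at Lgr5, a receptor gene of crypt stem cells. The series has 4 samples: 2 immunoprecipitates made with the antibody ab124744 against IRF2, and 2 input controls with no antibody, which were not analysed here. All carry the same strain label. No treatment and no animal age is named in the labels. The design text speaks of 5 mice, and nothing in it ties mice to libraries or says whether they were pooled. Peak lists hold no measure of expression, so the labelled cell type was not checked against markers here. Of the immunoprecipitates, the one titled 0082Takara is replicate 1 and the one whose title contains Tokyo is replicate 2. The track names of the Tokyo deposit run the other way. They call its own library rep1 and a copy of the 0082Takara library rep2.

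Cytokines bind receptors at the cell surface, the receptors activate Janus kinases (JAKs), and the kinases phosphorylate STAT proteins, which then enter the nucleus and bind DNA. Type I interferon acts through a complex that contains STAT2 and IRF9 and binds interferon-stimulated response elements. IRF2 belongs to the interferon regulatory factors, which bind related elements built on repeats of the letters GAAA, and it is known as an antagonist of IRF1. In the intestinal epithelium, cytokine signals from immune cells act on the same crypts that hold the stem cells.

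IRF2 peaks lay in or near 6 of the 7 genes in replicate 1 and 3 of the 7 in replicate 2. A gene was counted where a peak midpoint lay inside it or within 5000 bp of either end. By that rule 1.19% of all protein-coding genes had a replicate 1 peak and 1.02% a replicate 2 peak. Socs1, Nmi and Cd274 had a peak in both libraries, at overlapping positions, as 0.215% of protein-coding genes did. Stat3, Il15ra and Ifi35 had a peak in replicate 1 alone, and Stat2 had none in either list. Since these peaks led to the choice of the genes, nothing is read from the counts against those shares.

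The peaks of 5 of the 7 genes sat on an annotated transcription start. Start sites came from a RefSeq promoter table of the build GRCm38.p6, which has the coordinates of mm10 and lists all 7 genes. In replicate 1 the summit, the point of highest signal in a peak, lay within 1000 bp of a start for Socs1, Nmi, Cd274, Il15ra and Ifi35, against 0.469% of the 17492 protein-coding genes with an entry. In replicate 2 it did so for Socs1, Nmi and Cd274, against 0.56% of genes. The share with both was 0.12%.

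The promoter letters are shown because the peaks of Socs1 and Cd274 cover them. Patterns of IRF elements were searched on both strands. They were GAAANNGAA, a tandem repeat, and AANNGAAA, a shorter core that can overlap the first. Capitals mark matches to either one, in forward or reverse orientation. Each stretch holds the 250 bases before the start, read 5′ to 3′ in the direction of transcription. Socs1 is chr16:10785537-10785786 on the minus strand, Cd274 chr19:29367188-29367437 on the plus strand, Nmi chr2:51973209-51973458 on the minus strand and Stat2 chr10:128270248-128270497 on the plus strand. Nmi is shown as the gene with the highest peak of the group, and Stat2 as the gene with none.
Socs1: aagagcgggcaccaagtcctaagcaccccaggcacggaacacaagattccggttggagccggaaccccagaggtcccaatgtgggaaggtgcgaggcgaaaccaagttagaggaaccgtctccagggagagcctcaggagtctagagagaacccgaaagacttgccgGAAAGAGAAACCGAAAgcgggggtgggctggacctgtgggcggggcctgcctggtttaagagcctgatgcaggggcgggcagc
Cd274: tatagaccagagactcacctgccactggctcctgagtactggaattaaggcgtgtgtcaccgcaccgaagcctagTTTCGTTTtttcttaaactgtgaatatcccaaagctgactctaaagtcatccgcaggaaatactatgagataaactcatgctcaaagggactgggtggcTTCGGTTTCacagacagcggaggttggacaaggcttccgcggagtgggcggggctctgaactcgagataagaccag
Nmi: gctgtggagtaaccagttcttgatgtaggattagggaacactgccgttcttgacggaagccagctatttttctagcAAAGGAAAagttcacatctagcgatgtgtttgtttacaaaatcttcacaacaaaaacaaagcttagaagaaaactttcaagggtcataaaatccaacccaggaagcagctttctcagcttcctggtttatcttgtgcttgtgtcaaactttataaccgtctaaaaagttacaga
Stat2: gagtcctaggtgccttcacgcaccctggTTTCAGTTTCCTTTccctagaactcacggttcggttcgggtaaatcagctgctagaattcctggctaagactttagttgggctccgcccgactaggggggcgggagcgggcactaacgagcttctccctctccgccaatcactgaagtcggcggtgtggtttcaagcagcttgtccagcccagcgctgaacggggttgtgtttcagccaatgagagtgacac

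At Il15ra and Ifi35 the matches under the peak fell just after the start, and 30 bases around them are shown. They are chr2:11705729-11705758 and chr11:101448412-101448441, both on the plus strand.
Il15ra: ctaaagcaaAAGCGAAAGCGAAtactcctt
Ifi35: agcagaattcacagAAATGAAAgtggaagt

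Among all 32851 promoter windows of the table, each of 300 bases (250 before and 50 after the start), 8.56% held GAAANNGAA and 23.9% held AANNGAAA. The 7 genes have 8 such windows, since Il15ra has a pair of listed starts, and 5 of the windows overlapped a peak. Of those 5, the windows of Socs1, Cd274 and Il15ra held the tandem pattern, and all 5 held the core. The core of the Nmi window lay outside both peaks. Among windows that overlapped no peak, those of Stat2 and of the other Il15ra start held both patterns, and that of Stat3 held neither. Among the 73 windows of the whole table that overlapped a replicate 1 peak, 35.6% held the tandem pattern and 52.1% the core. Among the 86 that overlapped a replicate 2 peak, 15.1% and 26.7% did. A match is a description of letters and does not show which bases IRF2 touched.

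**Figure D1:**
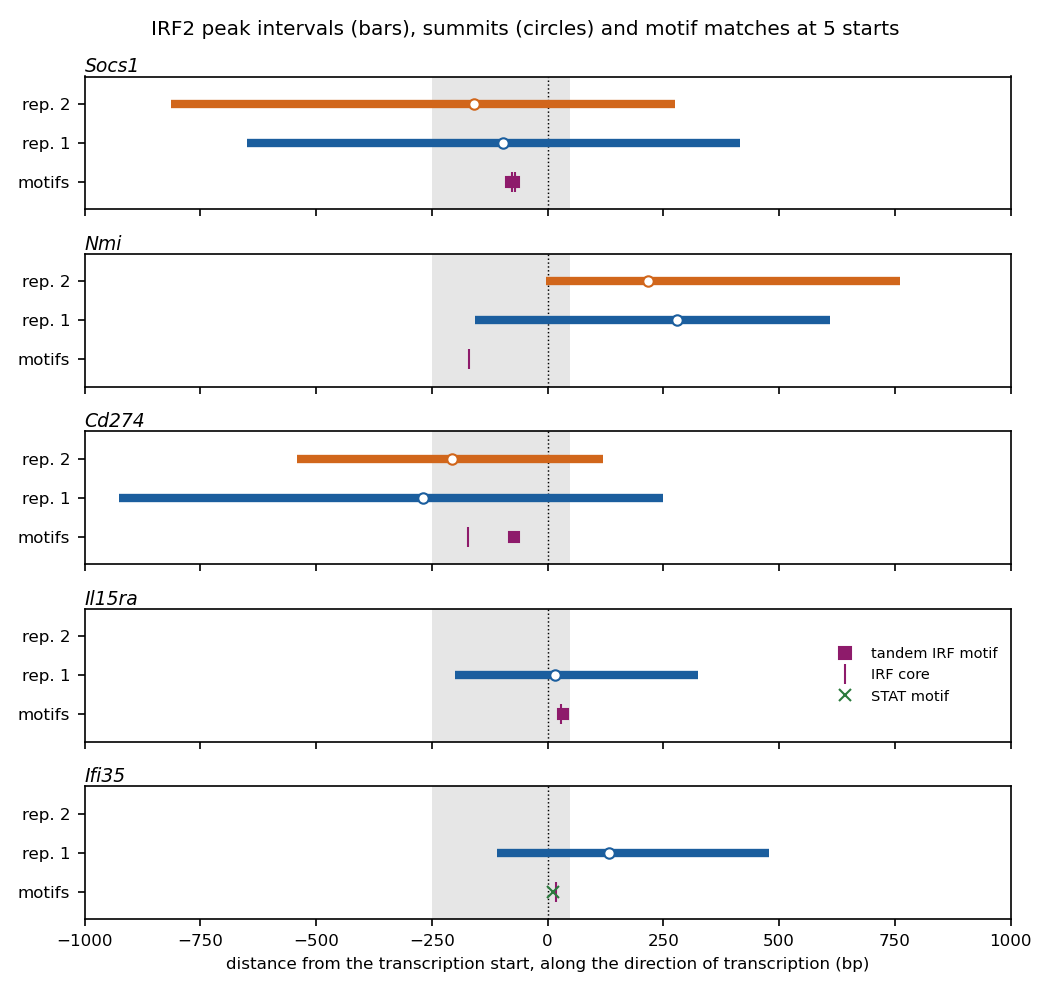
Distance from the transcription start in bp (x axis, in the direction of transcription) of the peak interval (bar), its summit (circle) and motif matches (markers), for 5 genes with a peak at the start. Blue is replicate 1, orange replicate 2, and grey the window searched for motifs. For Il15ra the second listed start is the origin. Peaks of Socs1, Nmi and Cd274 appear in both libraries, and those of Il15ra and Ifi35 in replicate 1 alone.

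Socs1 encodes a suppressor of cytokine signalling, an inhibitor of Janus kinases that is itself induced by cytokines. The gene is short, 1729 bp on the minus strand of chromosome 16 (10783808 to 10785536). Its replicate 1 peak ran from 10785121 to 10786185 and had a summit value of 58, and its replicate 2 peak ran from 10785260 to 10786350 with a value of 17. The summit value is the authors' own whole-number score of a peak, with no stated unit, and can be compared only within a list. The values ranked 30 of 380 in replicate 1, tied with 3 others, and 50 of 238 in replicate 2, in a tie of 11 peaks. Both intervals covered the start site, and the summits lay 96 and 160 bp upstream of it. The peak of replicate 2 was 1091 bp wide, the 7th widest of that list. No other protein-coding gene had an end as close, the next being that of Tnp2 at 2282 bp from the replicate 1 midpoint.

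The printed Socs1 promoter has a run in which 2 overlapping tandem matches begin 83 and 77 bp upstream of the start. Both lay inside the peak of each library. The match nearer to the replicate 1 summit was centred 17 bp from it, and 81 bp from the replicate 2 summit.

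Nmi encodes an interferon-inducible partner of STAT proteins and of the product of Ifi35. It lies on the minus strand of chromosome 2 (51948498 to 51973489). Its peaks had summit values of 84 in replicate 1 (51972598 to 51973364) and 23 in replicate 2 (51972448 to 51973211). They ranked 10 of 380 and 13 of 238, the best ranks of the 7 genes in both libraries. The summits lay 280 and 216 bp downstream of the listed start, inside the gene. They were thus past the end of the promoter window, and the single core match of that window, 174 bp upstream of the start, was outside both peaks. The letters under the summits were not analysed here. The next protein-coding gene end, of Rbm43, was 37818 bp from the replicate 1 midpoint.

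Cd274 encodes PD-L1, the ligand of the inhibitory receptor PD-1 on T cells. It lies on the plus strand of chromosome 19 (29362107 to 29388095). Its replicate 1 peak (29366511 to 29367688) had a summit value of 65 and ranked 20 of 380, and its replicate 2 peak (29366897 to 29367557) had a value of 17 and ranked 50 of 238. Measured to the gene's outer end, the midpoints lay 4992 and 5120 bp inside it, but the listed Cd274 start is at 29367438. Both peaks covered that start, with summits 270 and 206 bp upstream of it. In the printed promoter a tandem match on the opposite strand began 76 bp upstream of the start, and a core match 175 bp upstream. Both matches lay inside the peak of each library. The core was centred 99 bp from the replicate 1 summit and 35 bp from that of replicate 2, and the tandem match 198 and 134 bp.

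The gene body of Plgrkt, a plasminogen receptor, overlaps the low-coordinate part of Cd274 by 5186 bp in the annotation, and its high-coordinate end (29367292) was 193 bp from the replicate 1 midpoint and 65 bp from that of replicate 2. Plgrkt lies on the minus strand, so that end is its annotated 5′ boundary. Both peaks covered it, and it lay 146 bp from the Cd274 start. The listed Plgrkt start, at 29361871, was 5297 bp from the replicate 1 summit. By the listed starts the peak was therefore nearer to Cd274, and by gene ends nearer to Plgrkt. Which of these genes responds to the bound factor was not measured.

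At these 3 genes the summits of the libraries were 64 bp apart each time. Over all 56 pairs of overlapping peaks the distance ran from 0 to 678 bp, with a median of 80 bp, and 26 pairs were 64 bp apart or closer. All of these distances except that of 678 bp were multiples of 16 bp. Summit positions are thus coarse, as is every distance to a summit given here, and nothing is read from the repeated 64 bp. The overlap covered 86.9% of the replicate 1 peak and 84.9% of the replicate 2 peak at Socs1. At Nmi the shares were 80.1% and 80.4%. At Cd274 the replicate 2 peak lay wholly within that of replicate 1, of which it covered 56.1%.

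**Figure D2:**
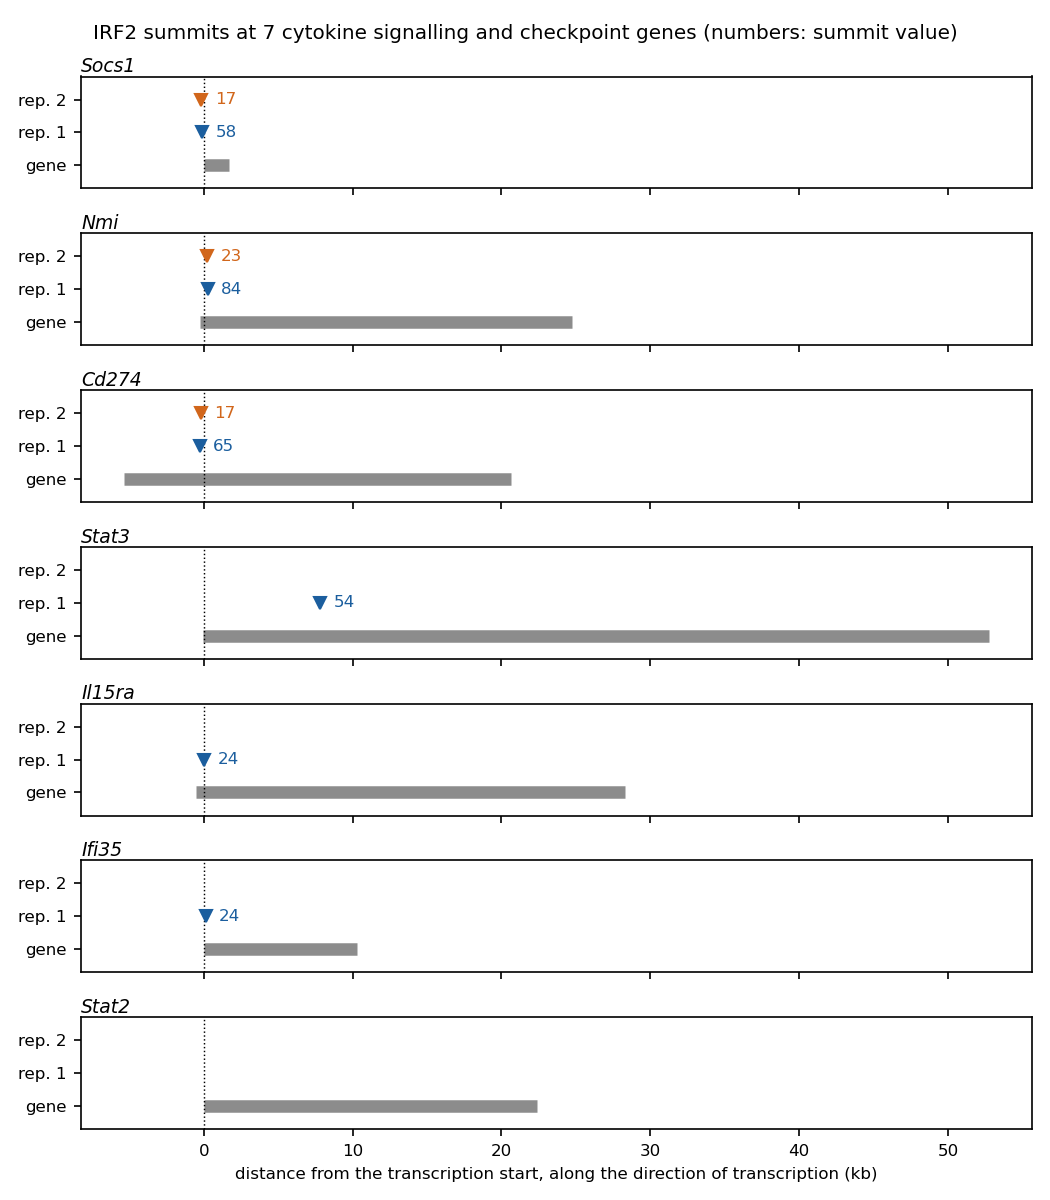
Summits (triangles, with the summit value) of IRF2 replicate 1 (blue) and replicate 2 (orange) along the gene body (grey bar) of the 7 genes. The x axis is the distance in kb from the transcription start, at 0, in the direction of transcription. All summits sit beside the start except that of Stat3, at 7828 bp into the gene, and Stat2 has none.

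Stat3 encodes the transcription factor downstream of interleukin-6 family receptors and of the interleukin-22 receptor, a pathway that acts on intestinal epithelium. It spans 52789 bp on the minus strand of chromosome 11 (100886806 to 100939594). Its peak in replicate 1 (100931355 to 100932042) had a summit value of 54 and ranked 40 of 380. The summit lay 7828 bp downstream of the start, inside the gene body, and exons and introns were not told apart. No replicate 2 peak was closer than 646 kb to the gene. Of the 41 replicate 1 peaks with a summit value at least as high, 29 (70.7%, 95% Wilson interval 55.5 to 82.4, counting error only) overlapped a replicate 2 peak. The cut-off was the value of the Stat3 peak itself. The 41 include that peak and those of Nmi, Cd274 and Socs1, so the share is a description. The Stat3 peak was among the 12 that did not overlap one. Its promoter window lay outside the peak and held neither IRF pattern nor TTCNNNGAA, the palindromic STAT element.

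Il15ra encodes the receptor chain that binds interleukin-15 and presents it to natural killer and T cells. The gene lies on the plus strand of chromosome 2 (11705172 to 11733985). Its replicate 1 peak (11705512 to 11706036) had a summit value of 24 and ranked 161 of 380, in a tie of 15 peaks. The summit lay 16 bp downstream of the second listed start (11705712). In the printed stretch the tandem match began 30 bp downstream of that start and was centred 18 bp from the summit. The window of the other listed start (11705293) had a tandem match too, 149 bp upstream of it and outside the peak.

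Ifi35 encodes an interferon-induced protein related to the product of Nmi. It lies on the plus strand of chromosome 11 (101448412 to 101458701). Its replicate 1 peak (101448303 to 101448890) also had a value of 24 and the rank of 161. The summit lay 132 bp downstream of the start. The core match in the printed stretch began 14 bp downstream of the start, and a STAT element, which 8.3% of all promoter windows hold, began 7 bp downstream. These matches overlap and both lay inside the peak. Ifi35 was the only one of the 7 genes with a STAT element in its window. Rpl27, a ribosomal protein gene, had the next gene end, 3000 bp from the peak midpoint.

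No replicate 2 peak lay near Il15ra or Ifi35, the nearest ones being 1657 and 1208 kb away. None of the 15 replicate 1 peaks with the value 24 overlapped a replicate 2 peak (95% Wilson interval 0 to 20.4%, counting error only). These 15 were picked by the value of the Il15ra and Ifi35 peaks and include them, so the share is a description. Over all 380 replicate 1 peaks the share was 14.5% (95% Wilson interval 11.3 to 18.4). Read depth is not known for either library, so a missing peak means that none was called at the authors' threshold.

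Stat2 encodes the STAT protein specific to type I and type III interferon signalling. It lies on the plus strand of chromosome 10 (128270498 to 128292853), and neither list had a peak near it. The nearest replicate 2 peak was 293 kb away, with a value of 14, and the nearest replicate 1 peak 6683 kb. In the printed Stat2 promoter a tandem match on the opposite strand began 221 bp upstream of the start, within a run of overlapping matches. Stat2 had the tandem pattern in its window and no called peak, whereas Nmi had a high peak and no tandem pattern in its window. The Nmi window ended before the Nmi summits, so this contrast says nothing of the letters under them.

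**Figure D3:**
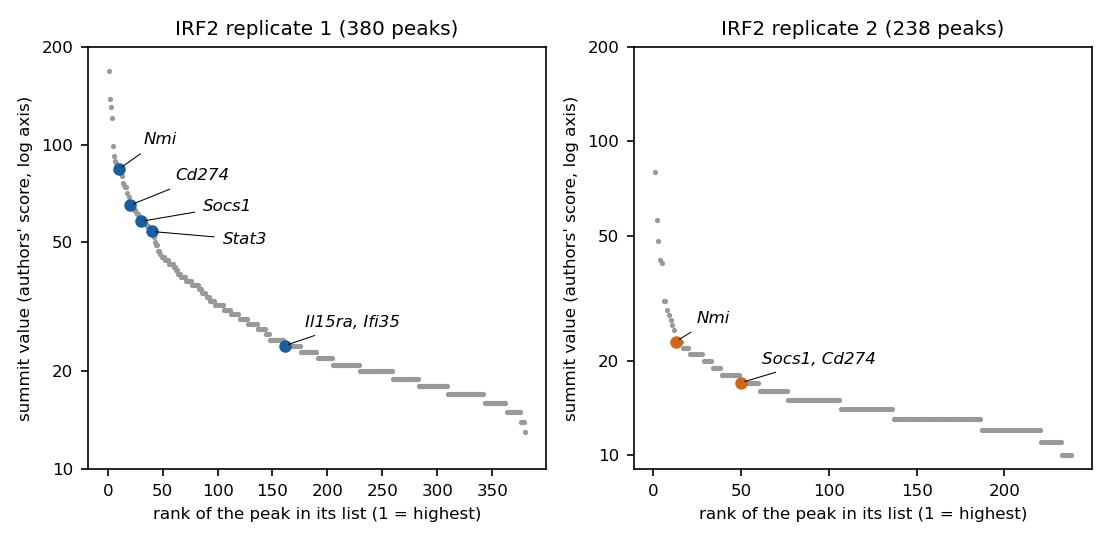
Summit value (y axis, log scale, the authors' score) of every peak against its rank in the list (x axis, 1 is the highest), for replicate 1 with 380 peaks and replicate 2 with 238. Named points are the peaks of the genes described. In replicate 1 the peaks of Nmi, Cd274, Socs1 and Stat3 are at ranks 10 to 40 and those of Il15ra and Ifi35 at 161, and in replicate 2 that of Nmi is at 13 and those of Socs1 and Cd274 at 50.

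Among themselves the replicate 1 peaks fell into a higher and a lower set. Nmi, Cd274, Socs1 and Stat3 had values from 54 to 84, and Il15ra and Ifi35 had 24, close to the median of 22.5 of the whole list. In replicate 2 the 3 values were 17, 17 and 23, where the list had a median of 14. Widths ran from 525 bp at Il15ra to 1178 bp at Cd274 in replicate 1, where the list median was 524.5 bp.

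The regions most like these in both libraries were found from the summed difference of the percentile ranks of the summit values, over the 53 regions called in both. For Socs1 and Cd274 each was the closest to the other. The next for Socs1 were a region 19800 bp from an end of Nr3c1, the glucocorticoid receptor gene (85 in replicate 1 and 17 in replicate 2), and that at Tap2 (58 and 19). For Cd274 they were the same Nr3c1 region and one 476900 bp from Nxph1 (82 and 18). For Nmi they were the region at Erap1, a peptidase of antigen presentation (82 and 25), one inside Erbb4 (89 and 22) and one 6256 bp from Rnf225 (99 and 28). This likeness rests on 2 libraries.

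**Figure D4:**
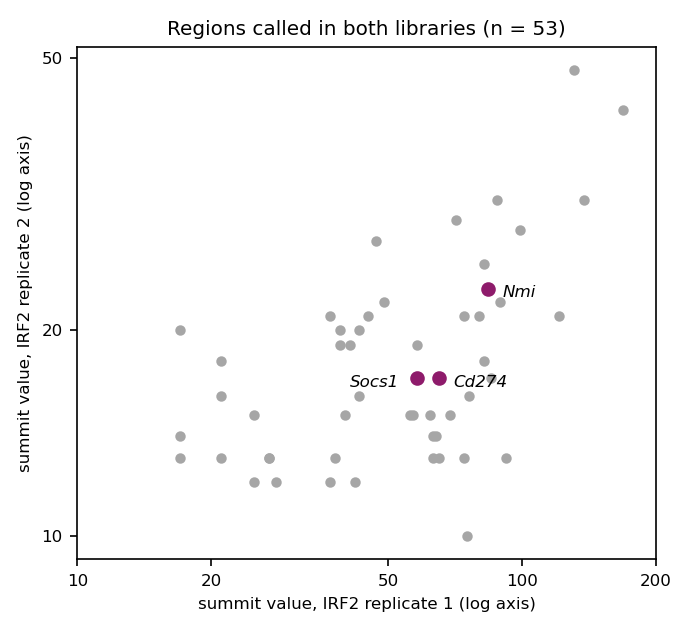
Summit value in replicate 1 (x axis) against replicate 2 (y axis), both log scales with the authors' score, for the 53 regions called in both libraries. The scores of the libraries are not on a common scale. The named points are Nmi (84 and 23), Cd274 (65 and 17) and Socs1 (58 and 17).

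A list of 58 further genes held cytokine receptors, Janus kinases, STATs, feedback inhibitors and checkpoint ligands or receptors. In replicate 1, 1 of the 58 had a peak by the same rule, against 1.19% of all protein-coding genes, and in replicate 2 0 of the 58 had one, against 1.02%. These counts are near the shares over all genes and do not set the list apart from them.

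The nearest peak to Jak2, which encodes a kinase inhibited by SOCS1, was the one at the Cd274 start, 54 kb away in both libraries. The same peak was also nearest to Pdcd1lg2, another gene of the list, at 43.8 kb in replicate 1 and 43.7 kb in replicate 2. Irf9, the DNA-binding partner of STAT2, had its nearest replicate 1 peak 13.3 kb away, and this was the peak at Psme2. That peak overlapped no replicate 2 peak, and the nearest replicate 2 peak to Irf9 was 1277 kb away.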

How the data were processed

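Members and gene lists were chosen with earlier results of these data known. Per the submitters' processing notes, BWA 0.7.12 and MACS were used on mm10; the sources used here do not give MACS thresholds or read depths. The deposited files hold, per the file headers, peak intervals and summits called per library, each summit with a score of unstated unit. A copy of replicate 1 in the other deposit (2 tracks) was counted once.

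Intervals were converted to 1-based coordinates and matched by midpoint to protein-coding genes of RefSeq GRCm38.p6 on chromosomes 1 to 19, X and Y (Python 3.11.15, pandas 2.3.3). Peaks overlapping by 1 bp were joined across libraries. Assignment and motif search were tested on simulated data. No significance test was made: the 2 libraries are 1 group, the labels do not say that they came from separate animals, and the members were chosen by their peaks. The named genes are the members, genes of the further list with a peak, genes with an end nearer to a member's peak, and the 3 shared regions closest in rank to each member. An item that this rule selects is not reported here. Jak2, Pdcd1lg2, Irf9 and the genes with the next nearest ends were added after their values were seen. Alternatives were windows of 1000 and 25000 bp, interval overlap, gene ends alone, the higher-scored 50% of each list, other overlap rules and leaving out a library. The count at start sites was added after the files were seen.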

Additional observations from a re-analysis of the deposited data

How the results depend on the processing

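The counts of genes with a peak were 5 or 6 of 7 in replicate 1 and 2 or 3 in replicate 2 under the settings tried. With gene ends alone, Stat3 dropped out of replicate 1 and Cd274 out of replicate 2, by construction, since their midpoints lie more than 5000 bp from an end. Genes with a peak in both libraries numbered 3 under the overlap rules and windows tried, and only Socs1 and Nmi remained with gene ends alone. Counting from a single library gave 3 to 6 (3 without replicate 1 and 6 without replicate 2). The 58 further genes gave 1 in replicate 1, against 4 with a window of 25000 bp and 0 in the higher-scored 50% of the list. In replicate 2 they gave 0, against 2 with 25000 bp. Counts at start sites were 5 and 3 with 500, 1000 or 5000 bp and in the higher-scored 50%. No paired analysis was possible because a single group, that of the IRF2 libraries, was used. Read depth is unknown, so what depth limits cannot be given as a number.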
